A study of Mus musculus with 6 samples.

Results

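The genes described here are 46 genes of DNA replication and of the step from G1 into S phase, named one by one: they load and fire replication origins, copy DNA, supply deoxynucleotides, drive entry into S phase and rebuild chromatin behind the fork. A gene was represented by the probe set annotated to its symbol alone with the highest mean over all arrays. This gave 45 of the 46, among 18193 genes with such a probe set. Chaf1a, the large subunit of chromatin assembly factor 1, had none and was not analysed here. All 45 passed the filter on dim signals, a log2 intensity of 4 on at least 3 arrays, and each reached it on all 6, so no gene entered through 1 genotype. They stand among 10302 genes tested.

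There were 6 Affymetrix arrays, each of a separate sample: 3 samples carry the label Gata3-/- and 3 the label Gata3+/-. The cells came from mouse embryonic stem cells (ESCs) with no intact copy or with 1 intact copy of Gata3, a zinc finger transcription factor of early T-cell development, so the comparison has no wild-type arm. Both genotypes were differentiated with IL-7 and Flt3L over OP9 stromal cells and their OP9-DL1 derivative, which presents the Notch ligand DL1, and were sorted by flow cytometry as T-cell progenitors. No source used here gives the sort markers, the number of ESC clones or the part of Gata3 that was disrupted.

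The label of the cells was set against marker lists. Of 15 T-lineage markers with a probe set, 13 stayed under the minimum on every array, and Cd3e, part of the signalling unit of the T-cell receptor, averaged 2.45 ± 0.04 in Gata3-/- and 2.42 ± 0.01 in Gata3+/- arrays (log2 intensity, SD, n = 3 each). The 15 summed to between 295.1 and 504.3 in Gata3-/- and between 508 and 617.8 in Gata3+/- arrays (linear intensity). These sums rest mostly on Lat, an adaptor of T-cell receptor signalling, which averaged 8.01 ± 0.55 in Gata3-/- and 8.86 ± 0.21 in Gata3+/- arrays. The other measured marker, the surface protein gene Cd5, went the other way, with means of 6.19 ± 0.56 in Gata3-/- and 4.75 ± 0.43 in Gata3+/- arrays. Neither passed the test. All 11 macrophage and monocyte markers with a probe set were measured. The cells are therefore called by their label below without a lineage being taken from it. The Gata3 probe set itself averaged 5.93 ± 0.48 in Gata3-/- and 5.88 ± 0.50 in Gata3+/- arrays and does not check the genotypes. The RNA is that of a whole sorted population, so differences in the share of cells in S phase, in the mix of cells and in RNA per cell cannot be told apart.

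Before a cell copies its DNA, the origin recognition complex with Cdc6 and Cdt1 loads the MCM helicase on origins in G1. The kinase Cdc7 with its partner Dbf4, and cyclin E with CDK2, then start the helicase with Cdc45 and the GINS complex, and the polymerases follow. Most of these genes are switched on by E2F transcription factors once cyclin-dependent kinases have inactivated the retinoblastoma protein, which is why their transcripts are used as a readout of cycling cells. Proliferation under Notch and IL-7 signals is a hallmark of early thymocyte progenitors.

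No gene of the group passed the test between the genotypes. In limma's two-sided test, with Benjamini-Hochberg adjustment across the whole table, 0 of the 45 had an adjusted p under 0.05, against a background of 5.27% of all genes (2.41% lower and 2.86% higher in Gata3-/- arrays). The smallest adjusted p was 0.0614, for E2f1. An unadjusted limma p under 0.05 was found for 25.8% of all genes. In the group there were 8 genes with lower values in Gata3-/- arrays (17.8%, background 12.3%) and 2 with higher values (4.44%, background 13.6%). The genotypes did not overlap in 10 genes that were lower in Gata3-/- arrays (22.2%, background 16.7%) and in 2, Mcm2 and Rpa1, that were higher (4.44%, background 16.9%). The differences, Gata3-/- minus Gata3+/- on the log2 scale, ran from -0.61 for Ccne2 to 0.50 for Mcm2. Their median was -0.14, beside -0.02 over all genes tested. A negative difference was seen in 36 of the 45 genes (80%), beside 53.3% of all genes. The genes moved together between replicates, as given below, so they are not 45 separate observations. The standard errors lay between 0.07 and 0.28, and in 43 genes the 95% interval lay within a 2-fold change in either direction. The exceptions were Ccne2 and Rrm1, whose intervals reached -1.01 and -1.02.

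**Figure D1:**
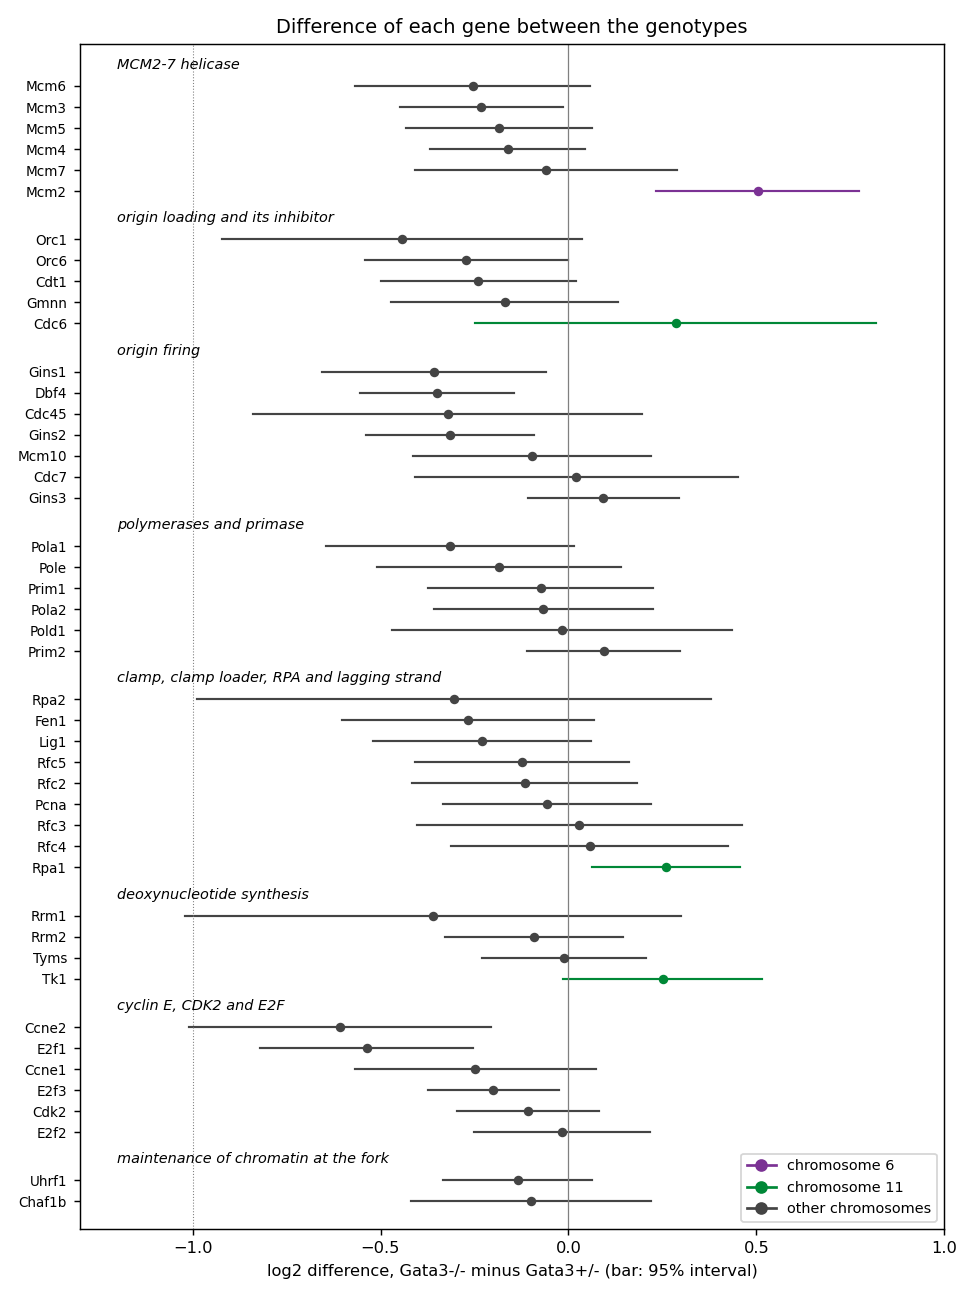
Difference between the genotypes for each of the 45 genes, grouped by role (x axis: log2 difference, Gata3-/- minus Gata3+/-; point: estimate, bar: 95% interval from limma; dotted line: 2-fold lower). The genes on chromosomes 6 and 11 (purple, green) lie right of 0, from 0.25 to 0.50, and those on other chromosomes lie between -0.61 and 0.09.

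The gene with the smallest p-value, E2f1, acts in the control of the G1 to S step. All 6 measured genes of this role had a negative difference, beside 53.3% of all genes. In 4 of them the genotypes did not overlap (background 16.7% lower). E2f1, a transcription factor that activates replication genes, stood at 8.40, 8.02 and 8.21 in Gata3-/- arrays (replicates 1, 2 and 3) and at 8.82, 8.74 and 8.69 in Gata3+/- arrays. Every Gata3-/- array lay below every Gata3+/- array, with a difference of -0.54 (SE 0.11, limma adjusted p = 0.0614), and a second, dimmer probe set of E2f1 differed by -0.32 (SE 0.14). Ccne2, which encodes a cyclin E that activates CDK2, stood at 8.72, 8.94 and 9.18 in Gata3-/- arrays and at 9.77, 9.54 and 9.36 in Gata3+/- arrays. These genotypes did not overlap either, with a difference of -0.61 (SE 0.16, limma adjusted p = 0.0937). The other cyclin E gene, Ccne1, averaged 8.86 ± 0.23 in Gata3-/- and 9.11 ± 0.06 in Gata3+/- arrays, and a second probe set of it showed a smaller difference of -0.07.

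E2f3, another activating E2F, averaged 8.11 ± 0.03 in Gata3-/- and 8.31 ± 0.07 in Gata3+/- arrays, with no overlap and a difference of -0.20 (limma adjusted p = 0.166). A dimmer E2f3 probe set went the other way, by 0.17 (SE 0.20). E2f2, the third activating member, averaged 6.55 ± 0.01 in Gata3-/- and 6.56 ± 0.15 in Gata3+/- arrays, with a 95% interval of the difference from -0.25 to 0.22. Cdk2, the kinase partner of cyclin E, differed by -0.11 (interval -0.30 to 0.08).

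Origin licensing is carried by the 6 MCM helicase subunits, the origin recognition subunits Orc1 and Orc6, the loaders Cdc6 and Cdt1 and the Cdt1 inhibitor geminin (Gmnn). The helicase subunits form 1 ring. Mcm2 had a positive difference and the other 5 negative ones. Mcm2 stood at 11.32, 11.57 and 11.31 in Gata3-/- arrays and at 11.04, 10.80 and 10.86 in Gata3+/- arrays. All Gata3-/- arrays were above all Gata3+/- arrays, by 0.50 (SE 0.11, limma adjusted p = 0.0640), and its other probe set differed by 0.53. Mcm3, Mcm4, Mcm5, Mcm6 and Mcm7 had differences of -0.23, -0.16, -0.19, -0.26 and -0.06. Of these 5, only Mcm3 and Mcm4 had genotypes that did not overlap (background 16.7% lower over all genes). Mcm3 stood at 12.22, 12.39 and 12.36 in Gata3-/- arrays and at 12.58, 12.64 and 12.45 in Gata3+/- arrays (limma adjusted p = 0.191).

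Orc1, the largest origin recognition subunit, stood at 7.29, 7.80 and 7.29 in Gata3-/- arrays and at 8.12, 7.96 and 7.64 in Gata3+/- arrays. The second Gata3-/- array lay above the third Gata3+/- array, so the genotypes overlapped, and the difference was -0.44 (SE 0.19, limma adjusted p = 0.243). Orc6, a small subunit of the same complex, averaged 9.96 ± 0.17 in Gata3-/- and 10.24 ± 0.08 in Gata3+/- arrays without overlap. Cdt1 and Gmnn had differences of -0.24 and -0.17. Cdc6 went the other way, at 10.66, 11.21 and 10.74 in Gata3-/- arrays against 10.86, 10.64 and 10.25 in Gata3+/- arrays. Its groups overlapped, with a difference of 0.29 (SE 0.22).

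Among 7 genes of origin firing, 3 had genotypes that did not overlap, all lower in Gata3-/- arrays. Over all genes tested, the background was 16.7% lower and 16.9% higher. Dbf4, the regulatory subunit of the Cdc7 kinase, stood at 10.76, 10.85 and 10.85 in Gata3-/- arrays and at 11.15, 11.08 and 11.28 in Gata3+/- arrays, a difference of -0.35 (SE 0.08, limma adjusted p = 0.0731). Its catalytic partner Cdc7 had a difference of 0.02 with an interval from -0.41 to 0.45. Gins2, a subunit of the GINS complex that joins the helicase to Cdc45, stood at 9.38, 9.52 and 9.38 in Gata3-/- arrays and at 9.85, 9.75 and 9.63 in Gata3+/- arrays. Its difference was -0.31 (SE 0.09, limma adjusted p = 0.110). A second Gins2 probe set, dimmer and therefore not the one that stands for the gene, averaged 9.04 ± 0.03 in Gata3-/- and 9.48 ± 0.11 in Gata3+/- arrays and did pass (difference -0.44, SE 0.08, limma adjusted p = 0.0473). It was the only one to pass among the 81 tested probe sets of the 45 genes (1.23%, beside 4.37% of all probe sets tested).

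Gins1 stood at 10.52, 10.69 and 10.37 in Gata3-/- arrays and at 11.04, 10.86 and 10.75 in Gata3+/- arrays, with a difference of -0.36 (SE 0.12). The third GINS gene on the list, Gins3, averaged 8.21 ± 0.10 in Gata3-/- and 8.11 ± 0.06 in Gata3+/- arrays. The GINS subunits form 1 complex; Gins1 and Gins2 had negative and Gins3 a positive difference, none past the test. Cdc45, the third part of the active helicase, differed by -0.32 (SE 0.21) and Mcm10, which helps to activate it, by -0.10 (SE 0.13).

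Genes of DNA synthesis itself had differences between -0.32 and 0.26. Of 6 polymerase and primase genes none had genotypes that were apart (background 16.7% lower and 16.9% higher over all genes). Pola1, the catalytic subunit of polymerase alpha, which starts each strand, averaged 10.01 ± 0.13 in Gata3-/- and 10.33 ± 0.20 in Gata3+/- arrays (difference -0.32, SE 0.13). Its partners Pola2, Prim1 and Prim2 had differences of -0.07, -0.07 and 0.09. For Pold1 and Pole, the catalytic subunits of the polymerases of the lagging and leading strand, the differences were -0.02 and -0.18. Pcna, the sliding clamp, stood at 14.54, 14.81 and 14.57 in Gata3-/- arrays and at 14.78, 14.77 and 14.55 in Gata3+/- arrays. The ranges of Pcna coincided, and the 95% interval of its difference ran from -0.33 to 0.22.

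The clamp loader genes Rfc2, Rfc3, Rfc4 and Rfc5 had differences between -0.12 and 0.06. The single-strand binding subunits Rpa1 and Rpa2 went in opposite directions. Rpa1 stood at 13.76, 13.90 and 13.74 in Gata3-/- arrays and at 13.61, 13.51 and 13.51 in Gata3+/- arrays, apart by 0.26 (SE 0.08, limma adjusted p = 0.128). Rpa2 differed by -0.30 but was the least precisely measured of all 45, at 10.21, 10.80 and 10.41 in Gata3-/- and 11.06, 11.04 and 10.23 in Gata3+/- arrays (SE 0.28). Fen1, the flap nuclease, and Lig1, the ligase that seals Okazaki fragments, had differences of -0.27 and -0.23, neither past the test.

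Deoxynucleotide supply is represented by Tyms, Tk1, Rrm1 and Rrm2. On its brightest probe set Rrm1, the large subunit of ribonucleotide reductase, ranged widely within each genotype. It stood at 11.40, 12.09 and 11.90 in Gata3-/- and 12.37, 12.41 and 11.69 in Gata3+/- arrays. A second, dimmer Rrm1 probe set varied less, at 11.41 ± 0.15 in Gata3-/- and 11.75 ± 0.06 in Gata3+/- arrays (difference -0.34, SE 0.10, limma adjusted p = 0.114). Rrm2, the small subunit of the reductase, averaged 12.31 ± 0.12 in Gata3-/- and 12.40 ± 0.09 in Gata3+/- arrays. Tk1, thymidine kinase, averaged 10.71 ± 0.15 in Gata3-/- and 10.46 ± 0.11 in Gata3+/- arrays (difference 0.25, SE 0.11). Tyms, thymidylate synthase, was read by a dim probe set, at 5.40, 5.48 and 5.40 in Gata3-/- and 5.35, 5.58 and 5.39 in Gata3+/- arrays, since a further probe set is annotated to a pseudogene as well and was left out. Of the chromatin genes, Uhrf1, which brings the maintenance DNA methyltransferase to the fork, differed by -0.14, and Chaf1b, a subunit of chromatin assembly factor 1, by -0.10.

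**Figure D2:**
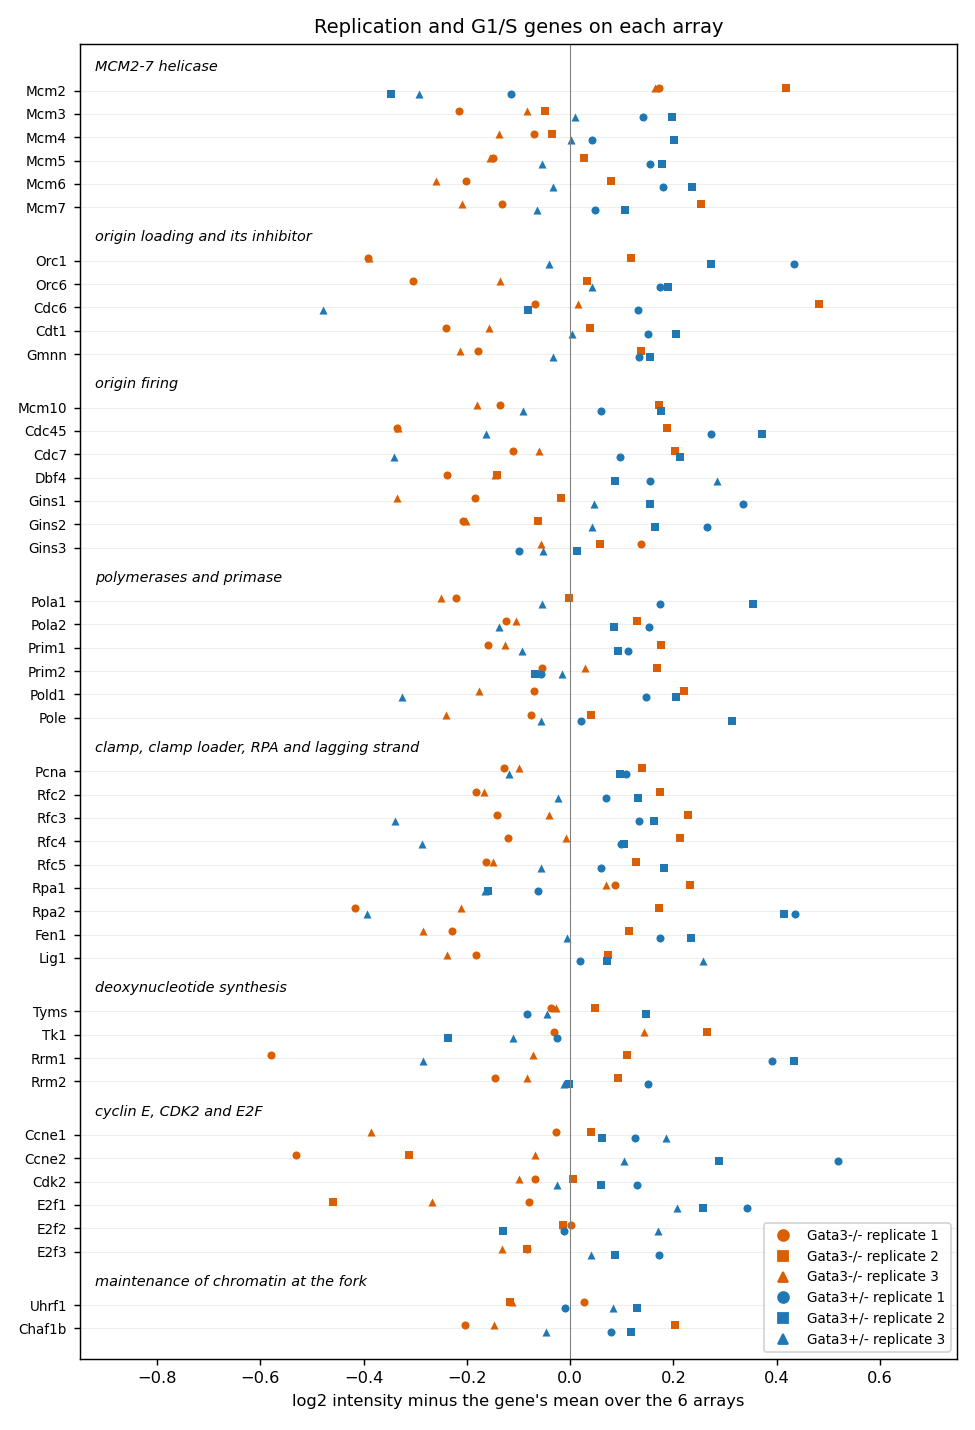
Log2 intensity of each gene on each array, as the deviation from the gene's own mean over the 6 arrays (x axis; orange, Gata3-/-; blue, Gata3+/-; marker shape, replicate number). The second Gata3-/- array (orange squares) is the highest Gata3-/- array for 40 of the 45 genes, and the third Gata3+/- array (blue triangles) is the lowest Gata3+/- array for 35.

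Of the 9 positive differences, the 4 largest lay on chromosomes 6 and 11. Mcm2 lies on chromosome 6, Cdc6, Rpa1 and Tk1 lie on chromosome 11, and none lies on chromosome 14. The other 5 (Cdc7, Rfc3, Rfc4, Gins3 and Prim2) lay on other chromosomes and ran from 0.02 to 0.09. Chromosome 11 as a whole was shifted, with a median of 0.33 over its 886 genes tested and 11.7% of them negative, whereas that of chromosome 6 as a whole was 0.00. Each gene was therefore set beside the 12 tested genes on either side of it in gene order (fewer near a chromosome's end), a comparison chosen after the values were seen. The neighbours of Mcm2 had a median of 0.48, with 23 of 24 positive, beside 0.50 for Mcm2 itself. For Cdc6 the neighbours' median was 0.29 and its own difference 0.29, for Rpa1 these were 0.35 and 0.26, and for Tk1 0.17 and 0.25.

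Outside chromosomes 6 and 11 the neighbours' medians ran only from -0.13 to 0.09. Outside chromosomes 6, 11 and 14 there were 41 genes, of which 36 were negative (87.8%, beside 58.4% of the 8557 genes there), with a median of -0.17 beside -0.04. Among those 41, the genotypes did not overlap in 10, all lower in Gata3-/- arrays (24.4%, background 18.6%). A limma p under 0.05 before adjustment was found for 8, all lower (19.5%, background 13.5%), and 0 passed the adjusted test. Against their own neighbours, 34 of the 45 genes were lower, with a median of -0.09. The largest such gaps were -0.64 for Ccne2, -0.45 for E2f1 and -0.40 for Orc1.

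**Figure D3:**
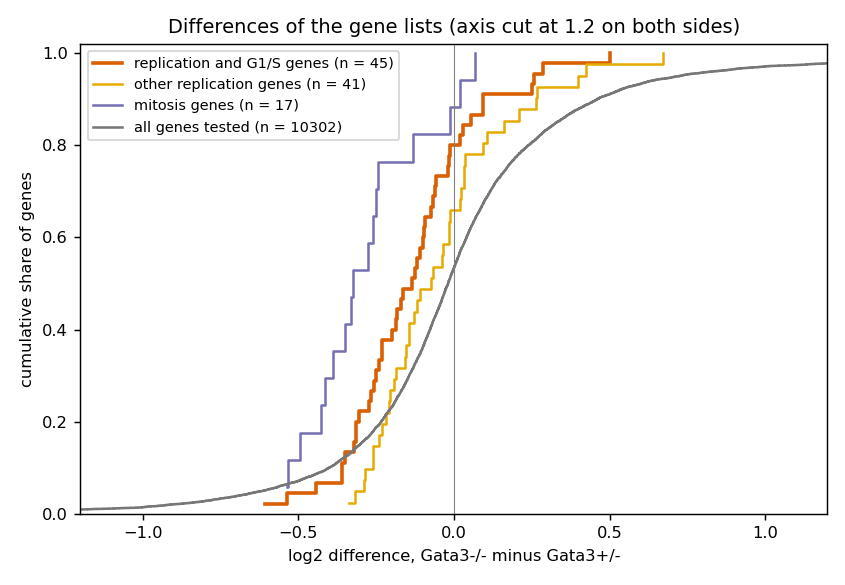
Cumulative share of genes (y axis) against the log2 difference, Gata3-/- minus Gata3+/- (x axis), for the 45 replication and G1/S genes, 41 other replication genes, 17 mitosis genes and all 10302 genes tested. The medians are -0.14, -0.07, -0.32 and -0.02.

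Between arrays of the same genotype the genes moved as a block. Within the Gata3-/- group, replicate 2 was highest for 40 of 45 genes (88.9%, beside 41.3% of all genes). Within the Gata3+/- group, replicate 3 was lowest for 35 of 45 (77.8%, beside 32.2%). Taking each gene's deviation from its mean over the 6 arrays, the average over the 45 genes was -0.15, 0.09 and -0.14 on Gata3-/- replicates 1, 2 and 3, and 0.13, 0.13 and -0.06 on Gata3+/- replicates 1, 2 and 3. The second Gata3-/- array therefore lay nearer to the Gata3+/- arrays than to the other Gata3-/- arrays. Pooled over the genotypes, the SD between replicates of the average over the 45 genes was 0.12. The 5 genes that were highest on another Gata3-/- array were E2f1, E2f2, Ccne2, Gins3 and Uhrf1. E2f1 was lowest on the second Gata3-/- array, and Ccne2 was highest on the third.

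Leaving out each array in turn gave between 33 and 39 negative differences of 45, with medians from -0.22 to -0.10. None of the 45 passed in any of these fits, which called only 0 to 4 genes over the whole table, so this says little about the group. The count of 39 and the median of -0.22 came without Gata3-/- replicate 2, the array nearest to the Gata3+/- arrays, so that its removal moves the values this way by construction. With both arrays numbered 2 left out, 35 were negative with a median of -0.18 and 0 passed, beside 3 of all 10302 genes tested.

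Stromal markers also varied between arrays, and were lowest on replicate 2 of either genotype. Of 11 stromal markers with a probe set 9 were measured, and their mean deviation was -0.21, -1.25 and 0.68 on Gata3-/- replicates 1, 2 and 3 and 0.71, -0.79 and 0.86 on Gata3+/- replicates 1, 2 and 3. Their summed intensity ran from 5457 to 18450 in Gata3-/- and from 7274 to 20030 in Gata3+/- arrays. Macrophage and monocyte markers summed to between 99140 and 115100 in Gata3-/- arrays and between 124100 and 144700 in Gata3+/- arrays. Of these 11 genes 9 had a negative (81.8%, beside 53.3% of all genes) and 2 a positive difference. Fcgr1, a high-affinity Fc receptor, fell by 0.70 (limma adjusted p = 0.0431), a call kept in 7 of 16 alternatives. Cd68, a lysosomal protein gene of macrophages, had a difference of 0.53 without overlap (limma adjusted p = 0.0541). The part of these cells in the values of the replication genes was not tested.

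**Figure D4:**
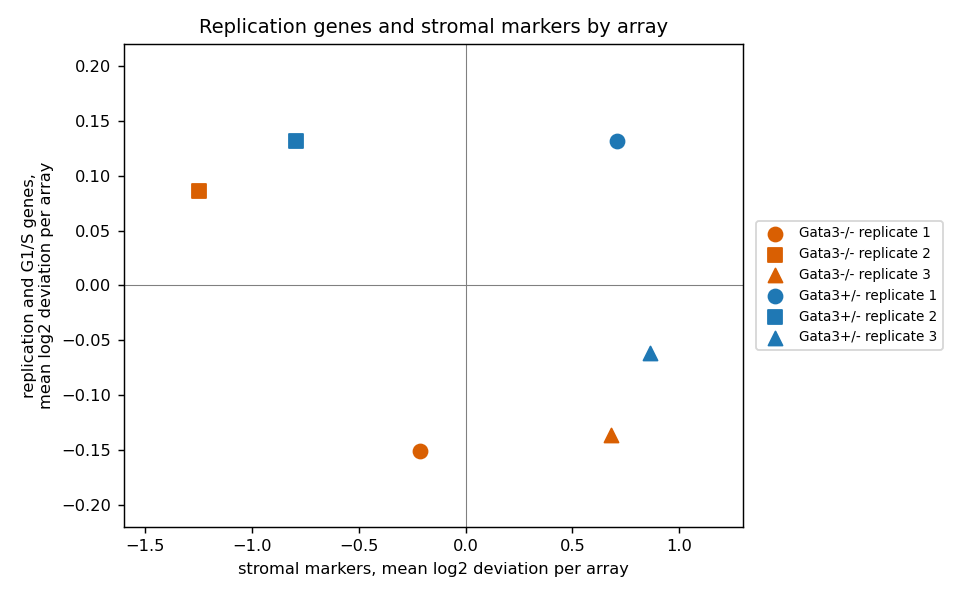
Mean deviation of the 45 replication and G1/S genes (y axis, log2) against that of 9 stromal markers (x axis, log2), 1 point per array (orange, Gata3-/-; blue, Gata3+/-; shape, replicate number). Both arrays numbered 2 lie left, at -1.25 and -0.79, and above 0 for the replication genes. Gata3+/- replicate 1 lies right, at 0.71, and is also above 0 for the replication genes, at 0.13.

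The letters of an E2F site were more frequent in these promoters than in all promoters. Most genes of this kind are known to be switched on by E2F, so the higher share is no independent support. E2F proteins bind a core whose letters are TTTCCCGC, TTTCGCGC, TTTGCCGC or TTTGGCGC. These forms were searched on both strands, overlapping matches included, in the window from 250 bases before to 50 bases after each gene start of RefSeq (GRCm38.p6). Of 38 genes with a window, 16 held a match (42.1%), beside 2.60% of all 27025 genes in the table and 4.97% of the genes tested. The lists of other replication genes and other G1/S regulators held it in 11 of 34 (32.4%) and 6 of 22 (27.3%). Matches were found in 4 of 5 MCM genes, 3 of 4 genes of origin loading and 3 of 5 of the cyclin E, CDK2 and E2F genes, against 1 of 5 of origin firing and 0 of 4 of deoxynucleotide supply. A match says only that these letters are present.

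The 5 genes with a whole match in the 120 bases before the gene start are shown over those bases. They come from different roles and went in different directions. Capitals mark the matched letters, in either orientation. Mcm6 lies at chr1:128359706-128359825 (minus strand), Orc1 at chr4:108579334-108579453 (plus strand), E2f3 at chr13:29986064-29986183 (minus strand), Gins3 at chr8:95633439-95633558 (plus strand) and Rfc3 at chr5:151651209-151651328 (minus strand), each written 5′ to 3′ along the gene.
Mcm6: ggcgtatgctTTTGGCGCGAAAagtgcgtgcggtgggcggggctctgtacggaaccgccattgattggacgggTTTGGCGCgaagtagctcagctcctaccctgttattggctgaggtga
Orc1: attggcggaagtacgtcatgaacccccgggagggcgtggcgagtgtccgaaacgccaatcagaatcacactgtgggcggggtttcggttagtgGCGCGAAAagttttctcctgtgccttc
E2f3: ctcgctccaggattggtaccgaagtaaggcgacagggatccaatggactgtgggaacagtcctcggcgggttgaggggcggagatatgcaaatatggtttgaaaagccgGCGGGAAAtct
Gins3: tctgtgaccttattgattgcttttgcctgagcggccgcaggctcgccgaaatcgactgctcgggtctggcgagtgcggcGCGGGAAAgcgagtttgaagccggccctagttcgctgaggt
Rfc3: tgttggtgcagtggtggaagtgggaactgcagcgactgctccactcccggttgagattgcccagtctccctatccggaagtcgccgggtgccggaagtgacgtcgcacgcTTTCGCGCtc
Mcm6 held 3 matches here, of which the first 2 overlap in a single run, and the others held 1 each. Their differences were -0.26 for Mcm6, -0.44 for Orc1, -0.20 for E2f3, 0.09 for Gins3 and 0.03 for Rfc3. Over the genes measured, the 16 with a match had a median difference of -0.16, with 13 negative, and the 21 without one had a median of -0.10, with 16 negative. E2f1, Dbf4 and Mcm2 had no match in these windows.

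Other genes of replication, taken as a list of 42, gave a further view of the fork. Of 41 measured, 0 passed the test, 27 were negative (65.9%, beside 53.3% of all genes) and the median was -0.07. The smallest p-values were those of Pole4, a small subunit of polymerase epsilon, at 9.36, 9.52 and 9.46 in Gata3-/- against 8.97, 8.51 and 8.84 in Gata3+/- arrays (difference 0.67, limma adjusted p = 0.0552), of Pold2, a subunit of polymerase delta, with a difference of 0.40, and of Dck, deoxycytidine kinase, with -0.29. Pole4 lies on chromosome 6 and Pold2 on chromosome 11.

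The only genes of the pathway that passed the test were a pair of cyclin-dependent kinase inhibitors. Among 29 measured of 30 other regulators of the G1 to S step, 2 fell and 0 rose. Over all genes tested, 2.41% fell and 2.86% rose. Cdkn2c, which encodes p18, an inhibitor of CDK4 and CDK6, stood at 6.86, 7.16 and 7.18 in Gata3-/- arrays and at 7.84, 8.18 and 8.41 in Gata3+/- arrays. It fell by 1.08 (SE 0.17, limma adjusted p = 0.0383). Cdkn2d, which encodes p19, of the same inhibitor family, stood at 9.84, 9.76 and 9.65 in Gata3-/- arrays and at 10.49, 10.37 and 10.24 in Gata3+/- arrays, and fell by 0.62 (SE 0.10, limma adjusted p = 0.0373). Each call was kept in 8 of 16 alternatives. Both were lost without a filter, without both arrays numbered 2 and in each fit that left out 1 array, the last of which called 0 to 4 genes in all. Over the 16 alternatives the limma adjusted p of Cdkn2c ran from 0.0294 to 0.174 and that of Cdkn2d from 0.0185 to 0.173, with differences between -1.23 and -0.92 and between -0.69 and -0.56.

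Other inhibitors had positive differences above 1 that did not pass. Cdkn1a, the p21 inhibitor of CDK2 and a target of p53, stood at 12.48, 12.20 and 12.28 in Gata3-/- arrays and at 11.04, 10.46 and 11.61 in Gata3+/- arrays (difference 1.28, SE 0.29, limma adjusted p = 0.0689). Cdkn2a and Cdkn2b, neighbouring genes that each encode an inhibitor of CDK4 and CDK6, were chosen after their values were seen. So was Cdkn1b, the p27 inhibitor of CDK2. Cdkn2a stood at 5.81, 6.85 and 6.92 in Gata3-/- arrays and at 4.36, 4.80 and 5.31 in Gata3+/- arrays (limma adjusted p = 0.0677). Cdkn2b stood at 10.35, 9.70 and 10.45 in Gata3-/- arrays and at 8.40, 5.81 and 8.08 in Gata3+/- arrays (limma adjusted p = 0.0885). In these 3 genes every Gata3-/- array was above every Gata3+/- array. Cdkn1a passed in 2 of 16 alternatives (array weights and the mean of probe sets), Cdkn2a in 2 of 15 (array weights and the replicate block) and Cdkn2b in 0 of 16. Cdkn1b was lower on every Gata3-/- array, at 10.25 ± 0.11 in Gata3-/- and 10.69 ± 0.04 in Gata3+/- arrays (limma adjusted p = 0.0503).

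The D-type cyclins and the retinoblastoma gene did not pass the test. Ccnd2, Ccnd3, Rb1 and Myc, a growth factor-responsive activator of the cycle, had differences of -0.03, -0.07, -0.01 and -0.22. Ccnd1 stood at 8.81, 7.74 and 9.81 in Gata3-/- and 10.06, 8.29 and 9.88 in Gata3+/- arrays and was lowest, like the stromal markers, on replicate 2 of either genotype.

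**Figure D5:**
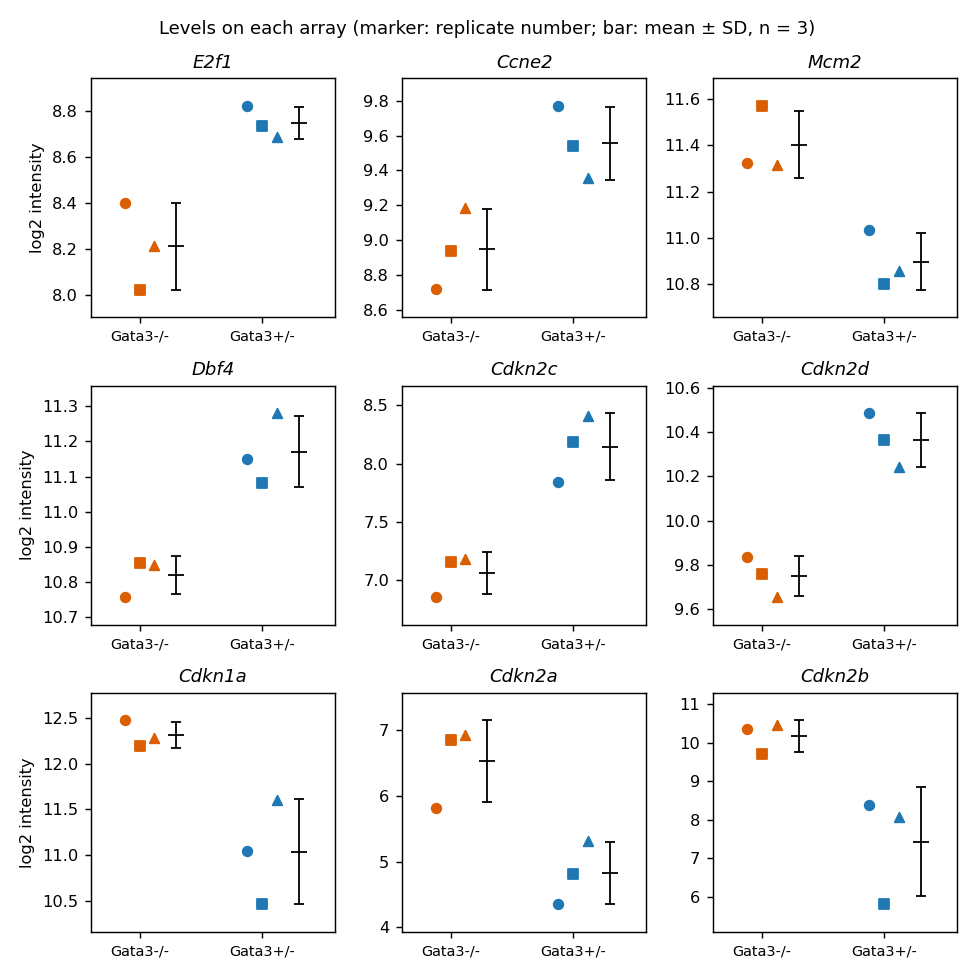
Log2 intensity of 4 replication and G1/S genes and 5 cyclin-dependent kinase inhibitors on each array (y axis; each panel has its own scale, which does not start at 0), Gata3-/- left and Gata3+/- right, with the mean ± SD (n = 3) as a black bar. The genes shown were picked with their values known, and in each panel the genotypes do not overlap. Over all genes tested this held for 16.7% (lower) and 16.9% (higher). Cdkn2c and Cdkn2d passed the test and the other 7 did not.

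Mitosis genes, which act after S phase, were set beside the replication genes as the most similar group. Of 17 measured, 15 were negative (88.2%, beside 53.3% of all genes) and 0 passed. Their median was -0.32, against -0.14 for the replication genes, a gap that was not tested. Aurka, a spindle kinase, averaged 10.31 ± 0.13 in Gata3-/- and 10.80 ± 0.07 in Gata3+/- arrays (difference -0.50, limma adjusted p = 0.0508). Tpx2, which activates Aurka on the spindle, and Bub1b, a spindle checkpoint gene, had differences of -0.43 and -0.54 (limma adjusted p = 0.0519 and 0.0595). Mki67, the proliferation marker Ki-67, stood at 12.54, 12.54 and 12.52 in Gata3-/- arrays and at 12.82, 13.05 and 12.73 in Gata3+/- arrays, apart by -0.33. On the second Gata3-/- array the mitosis genes deviated by -0.05, and the replication genes by 0.09.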

How the data were processed

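Gene expression was measured in 3 Gata3-/- and 3 Gata3+/- samples, grouped by the titles in the labels, which call the replicates biological. Whether they came from separate cultures or clones is not stated, so the p-values may reflect technical spread alone. The authors deposited linear intensities for 45101 probe sets, made with GC-RMA per the labels, which corrects background from probe sequence and normalizes between arrays. GCOS is named in the submitters' processing notes, without a version. The number of arrays limits the precision.

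Log2 values were taken and 64 control probe sets left out. Probe sets at a log2 value of 4 or more on at least 3 arrays were tested, 20102 in all. Of all probe sets, 34945 had 1 gene symbol among those analysed, 932 had several and 9224 had none listed. limma version 3.58.1 in R version 4.3.3 was fitted over the whole table and p-values were adjusted over all of it, with a threshold of 0.05. The procedure was tested on simulated data. Plots used matplotlib version 3.10.9. The genes, lists, rule for named genes (all 46 genes, called genes of the other lists or the 3 with the smallest p, and a few regulators) and alternatives were chosen with earlier results of these data known. The replicate numbers were checked for pairing and not used as a block.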

Additional observations from a re-analysis of the deposited data

How the results depend on the processing

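Of the 45 genes, 0 passed the test with quantile normalization, with median centring, without a filter, with the minimum raised to 6, without both arrays numbered 2, without chromosomes 6, 11 and 14, and in each fit that left out 1 array. The exceptions were array weights with 5 (Ccne2, Dbf4, E2f1, Gins1 and Gins2), a variance trend with robust eBayes with 2 (Dbf4 and Mcm2) and the mean of a gene's probe sets with 1 (Gins2). Calls over all 10302 genes rose in the same settings, to 1224, 824 and 731, from 543 in the main fit. The counts among the 45 are therefore not particular to these genes. The cause was not tested. Leaving out each array in turn gave 0 of these genes called each time, 33 to 39 negative differences, medians from -0.22 to -0.10 and 0 to 4 genes called over all genes. Over all genes 543 were called, against 98 without a filter, 824 with a variance trend, 1224 with array weights, 232 without chromosomes 6, 11 and 14 and 3 without both arrays numbered 2. Fits with fewer arrays or other sets of probe sets differ from the main one by construction. Signs changed in 0 to 5 of the 45 genes per alternative, none with a difference beyond 0.06 in size. With the replicate block 298 genes were called over all genes and 0 of the 45. Arrays of number 1, 2 and 3 had deviations from their genotype means that correlated at 0.005, 0.69 and 0.43. The 0.69 of the arrays numbered 2 was the highest of any pair across the genotypes. Gata3+/- replicate 1 matched Gata3-/- replicate 3 better (0.42) than its own number. The labels do not say whether arrays of the same number were made together, and a shared batch was not tested.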
